A study of Mus musculus with 2 samples.

Results

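The 10 genes described here belong to the BCL2 family, the proteins that decide at the outer mitochondrial membrane whether a cell survives or dies. They were matched by gene identifier in the GENCODE M21 annotation. All 10 were found, of 55536 annotated genes. They are the survival genes Bcl2, Bcl2l1, Mcl1 and Bcl2a1b, the BH3-only genes Bcl2l11, Bbc3, Pmaip1 and Bid, and the pore-forming genes Bax and Bak1. RNA selected for its polyA tail was sequenced from regulatory T cells, a class of CD4 T cells that keeps immune responses in check. The cells were primary cells of 1 male mouse aged 4 months, of a strain carrying a Foxp3 allele that expresses CreERT2 (a tamoxifen-dependent recombinase) and a YFP reporter at Rosa26. The labels give no treatment, no sort or gate, and name only a haematopoietic cell of the bone marrow as the origin of the cells. There are 2 libraries, technical replicates 1 and 2 of that single biological sample, so no condition can be compared with another. Each ± below is the SD of these 2 libraries (n = 2), and it covers technical variation only.

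Library 1 had 15821875 estimated counts on annotated genes and library 2 had 16153671. Where a gene has a count of 0, as many as 3 counts remain possible, which is 0.190 CPM (library 1) and 0.186 CPM (library 2) and covers counting error only. The label of the cells was checked against marker genes. All 6 markers of regulatory and CD4 T cells reached 1 TPM in both libraries, with Foxp3 at 43.2 and 36.2 TPM, and their levels summed to 2206 and 2213 TPM. Markers of B cells summed to 35.1 and 35.0 TPM, nearly all of it Cd79b at 33.2 TPM, and those of CD8 T and NK cells to 15.0 and 18.0 TPM. Neutrophil and monocyte markers summed to 3.04 and 5.35 TPM with Csf3r and Ly6g at 0, red cell markers to 8.98 and 5.71 TPM, dendritic cell markers to 0.53 and 1.14 TPM with Itgax at 0, and mast cell and basophil markers to 0.06 and 0.38 TPM with Mcpt8 and Fcer1a at 0.

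BCL2 family proteins share short stretches called BH domains. Survival members hold the pore formers BAX and BAK in check, and the BH3-only members, made or activated under stress or when growth signals are lost, bind the survival members or activate the pore formers directly. Once BAX or BAK opens the outer mitochondrial membrane, cytochrome c leaves and caspases are switched on. In regulatory T cells, BIM (Bcl2l11) and MCL1 are known for setting how many of the cells survive, under the influence of interleukin 2.

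Of the 10 members, 9 reached 1 TPM (the level scaled for transcript length and depth) in both libraries, against 46.5% of all annotated protein-coding genes. The survival genes and Bax stood high, the BH3-only genes apart from Bid stood lower, and Bak1 and Bbc3 were lowest. At 5 TPM or more in both libraries stood 8 members, against 37.0% of protein-coding genes, and at 50 TPM or more stood 4 members, namely Bcl2a1b, Bcl2, Bax and Mcl1, against 10.8%. The median of the members was 39.4 TPM, beside 18.5 TPM over the protein-coding genes that reached 1 TPM in both libraries. In bulk RNA, fewer cells that express a gene and less of its RNA per cell cannot be told apart.

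**Figure D1:**
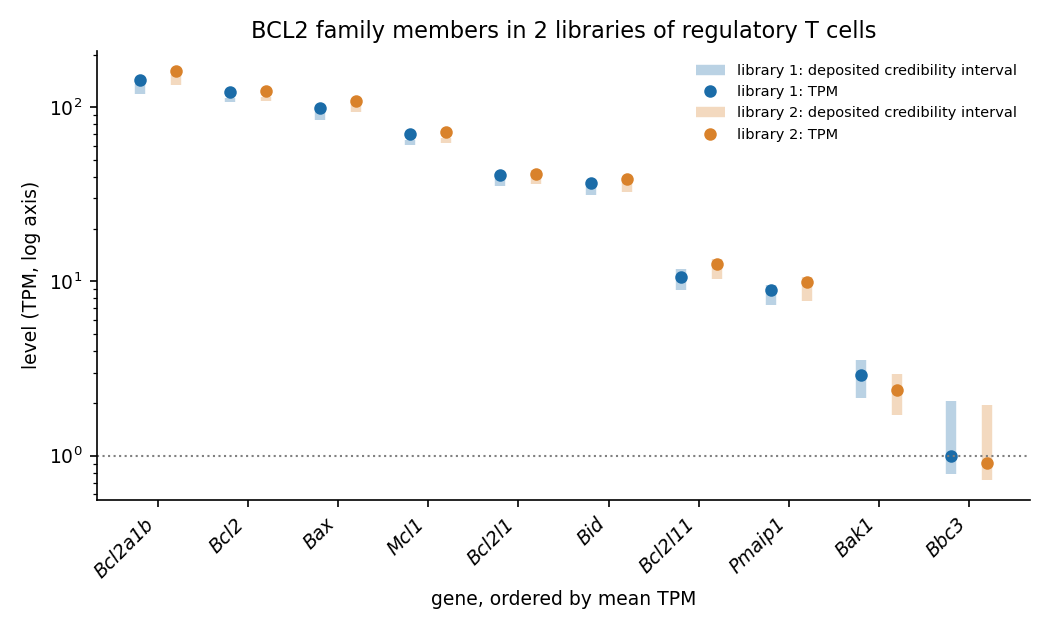
Level of each member in TPM on a log axis, with dots for the deposited TPM of library 1 and library 2 and bars for the deposited credibility interval of each library, which is built around the posterior mean. The dotted line marks 1 TPM. Both libraries gave the same order, from Bcl2a1b at 152 TPM to Bbc3 at 0.955 TPM.

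The order of the levels was Bcl2a1b, Bcl2, Bax, Mcl1, Bcl2l1, Bid, Bcl2l11, Pmaip1, Bak1 and Bbc3 in each library. For each of the 9 pairs of neighbours, the library values did not overlap. The deposited credibility intervals, whose level is not given in the sources used here, did overlap for 4 of these pairs. They were Bcl2 with Bax, Bcl2l1 with Bid, Bcl2l11 with Pmaip1, and Bak1 with Bbc3. The order also rested on which transcript length a count was divided by. With estimated counts divided by all exons of a gene merged, Mcl1 (136 on that scale) stood above Bcl2 (122), Bid (42.7) above Bcl2l1 (38.1), and Pmaip1 (16.9) above Bcl2l11 (10.7). The order changed further in the smaller gene tables, a separate and older set of whole-number counts. Per kb of merged exons, Bax was highest there (348), above Bcl2a1b (93.6), Bcl2 (89.5) and Mcl1 (49.2). Per kb of coding sequence, a length chosen after seeing the data, Bcl2 was highest (1158) and Bcl2a1b (148) stood below Mcl1 (169).

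Among the survival genes, Bcl2 (ENSMUSG00000057329.7, mm10 chromosome 1, 106538178 to 106714274, minus strand) gave the most reads of all members. It is the founding member of the family and binds BH3-only proteins and BAX. Its level was 123 TPM in library 1 and 124 TPM in library 2 (124 ± 0.94), from 7212 and 7531 estimated counts. The libraries nearly coincided, and the mean placed Bcl2 above 91.8% of the genes that reached 1 TPM in both.

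Bcl2 has 2 annotated transcripts, and both were present. Bcl2-201, the spliced form known as BCL2 alpha, joins the first coding exon to a distant second one, which encodes the membrane anchor. Bcl2-202, the form known as BCL2 beta, runs on from the first coding exon into the intron and stops soon after. The first coding base that differs is 578, and the shared exon ends at coding base 576. The sequences around that point are shown because they tell the forms apart, as coding bases 553 to 600 in the GENCODE M21 transcripts on mm10, with capitals for what follows the end of the shared exon.
Bcl2-201: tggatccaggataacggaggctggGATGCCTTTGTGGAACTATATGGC
Bcl2-202: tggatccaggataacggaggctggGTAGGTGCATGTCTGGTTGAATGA
After this point Bcl2-201 has 135 further coding bases and Bcl2-202 has 24, both with the stop codon.

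Which form led depended on the measure. By estimated counts Bcl2-201 led, with 4831 counts against 2381 in library 1 and 4935 against 2596 in library 2. That gave Bcl2-201 67.0% of the gene's counts in library 1 (95% exact Clopper-Pearson interval 65.9 to 68.1%) and 65.5% in library 2 (64.4 to 66.6%). By TPM, which divides by length, Bcl2-202 led with 55.8% and 57.4% of the gene's level. Bcl2-201 is 7191 bases long and Bcl2-202 is 2841 bases long. Of the 50-base stretches of Bcl2-202, 1965 of 2792 occur in no other Bcl2 transcript, and for Bcl2-201 it is 6311 of 7138, so the forms are well separated by sequence. The tables do not separate mature from unspliced RNA. An antisense gene, D630008O14Rik, covers 6.09% of the exon bases of Bcl2 and had 245 and 276 counts of its own. The sources used here do not say whether counting used strand.

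Mcl1 (ENSMUSG00000038612.16, mm10 chromosome 3, 95658788 to 95663176, plus strand) encodes a survival protein with a very short life in the cell. Its level was 70.3 and 71.8 TPM (71.0 ± 1.05), from 2945 and 3153 counts. All of these counts went to the full-length transcript Mcl1-201, and Mcl1-202, the other annotated transcript, had 0 counts in both libraries. Mcl1-202 has 43 of 809 50-base stretches to itself, so little sequence could show it.

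Bcl2l1 (ENSMUSG00000007659.18, mm10 chromosome 2, 152780668 to 152831728, minus strand) encodes BCL-XL, and a shorter splice form of it is known to promote death. Its level was 40.8 and 41.3 TPM (41.0 ± 0.37), from 1136 and 1161 counts, so the gene as a whole was nearly equal in the libraries. Its transcripts were not. Bcl2l1-201 took 44.7% of the level in library 1 and 57.8% in library 2, and Bcl2l1-202 took 32.0% and 20.1%. Both contain the same number of coding bases, 699 without the stop codon. Their split rests on little sequence, because only 67 stretches of 50 bases are found in Bcl2l1-201 alone and 0 in Bcl2l1-202 alone. Of the other 7 transcripts, Bcl2l1-205 had 10.3% and 9.05%, Bcl2l1-207 had 6.86% and 12.2%, and Bcl2l1-206 had 57.0 and 0 counts.

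Bcl2a1b (ENSMUSG00000089929.1, mm10 chromosome 9, 89199209 to 89207827, plus strand) had the highest TPM of the members, though it was not the highest in the smaller gene tables. It encodes A1, a survival protein known to be induced through NF-kappaB, and the mouse carries several copies of the gene. The level was 144 TPM in library 1 and 161 TPM in library 2 (152 ± 12.4), from 1371 and 1614 counts, with library 2 higher. The sum of the neutrophil and monocyte markers was also higher in library 2 (3.04 and 5.35 TPM), most of it from Tyrobp (2.35 and 4.77 TPM). S100a9 was lower there (0.51 and 0 TPM), S100a8 and Lyz2 stayed at 0.34 TPM or less, and Csf3r and Ly6g were at 0. Any part of such cells in the level of Bcl2a1b was not tested.

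The value for Bcl2a1b was less certain than its counts imply, because other genes share its sequence. In all, 79.2% of its 50-base stretches are found in other genes as well. Bcl2a1d holds 57.6% of its stretches, the overlapping gene Gm29094 46.0% and Bcl2a1a 41.1%. The authors' estimated posterior SD of its count was 28.5 in library 1 and 30.8 in library 2, while that of Bcl2 was 10.5 in each on several times as many counts. The start of the coding sequence is where Bcl2a1b, Bcl2a1d and Bcl2a1a differ most. Coding bases 1 to 60 are shown for that reason, with capitals at the 6 positions where the genes are not all alike.
Bcl2a1b-201: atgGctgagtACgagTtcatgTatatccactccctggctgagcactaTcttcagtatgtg
Bcl2a1d-201: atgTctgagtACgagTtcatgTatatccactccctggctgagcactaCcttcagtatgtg
Bcl2a1a-201: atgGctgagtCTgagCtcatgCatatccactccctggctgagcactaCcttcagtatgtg
Over the whole coding sequence of 519 bases with the stop codon, Bcl2a1b and Bcl2a1d differ at 6 positions (98.8% identity). Bcl2a1b and Bcl2a1a differ at 11 (97.9%).

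Within the group of Bcl2a1 genes, the counts were assigned mainly to Bcl2a1b. It had 76.9% of the group's estimated counts in library 1 and 78.7% in library 2. Bcl2a1d followed at 38.7 and 40.2 TPM (39.5 ± 1.05). Bcl2a1a had 15.4 and 0 counts, and Bcl2a1c, a shorter gene, had 4.35 and 9.63. The 4 genes summed to 185 and 203 TPM (194 ± 13.0), a level that rests less on how reads were split among them. Gm29094, which overlaps Bcl2a1b on the same strand, had a further 177 and 232 counts (26.0 ± 4.07 TPM). The split was not the same in the smaller gene tables, a separate and older set of whole-number counts. There Bcl2a1b held 57.7% and 55.7% of the group, with 75 and 78 counts, and Bcl2a1d had 49 and 57.

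Among the BH3-only genes, Bid (ENSMUSG00000004446.12, mm10 chromosome 6, 120891930 to 120916853, minus strand) stood highest. Its protein becomes active when caspase 8 cuts it, which links death receptors to mitochondria. The level was 37.0 and 38.6 TPM (37.8 ± 1.10), from 951 and 1045 counts. Bid-201 carried 88.8% and 91.7% of it. A transcript annotated for nonsense-mediated decay, Bid-204, had 6.06% and 4.04%. On the opposite strand Bcl2l13 covers 17.7% of the exon bases of Bid, and it had 446 and 464 counts of its own.

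Bcl2l11 (ENSMUSG00000027381.16, mm10 chromosome 2, 128126038 to 128162547, plus strand) encodes BIM, which binds all survival members and is known to drive the death of T cells that lose cytokine support. Its level was 10.5 TPM in library 1 and 12.6 TPM in library 2 (11.6 ± 1.44), from 507 and 628 counts. Library 2 was higher. The mean lay above 46.6% of the genes that reached 1 TPM in both libraries, close to the middle.

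BIM is made in forms of different length, known as BimEL, BimL and BimS. Bcl2l11-205, whose 196 codons are those of the longest form, had 63.8% and 66.3% of the level and 417 and 542 of the counts. The 2 transcripts with 110 codons, the length of the shortest form, had 9.59% and 19.7% together. Bcl2l11-203, with the 140 codons of the middle form, had 0 counts in both libraries, but no 50-base stretch is found in it alone. Bcl2l11-202, with 91 codons, had 11.0% and 5.28%, and the non-coding Bcl2l11-208 had 12.8% and 8.74%. The longest form led in each library, while the shares given to minor forms moved between them, by up to 11.4 points for Bcl2l11-204. That transcript, 1 of the 2 with 110 codons, had 0.15 and 11.8 counts and has no 50-base stretch to itself. The other, Bcl2l11-201, has 40 of its 2441 stretches to itself.

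Pmaip1 (ENSMUSG00000024521.8, mm10 chromosome 18, 66458533 to 66465565, plus strand) encodes NOXA, known for binding MCL1 and A1 rather than BCL2. Its level was 8.91 and 9.98 TPM (9.45 ± 0.76), from 293 and 313 counts. Pmaip1-201 had 82.6% and 84.2% of it. The minor transcript was a different one in each library. Library 1 had 48.1 counts of Pmaip1-203 and 0 of Pmaip1-202, while library 2 had 0 and 19.8. Between 44 and 89 stretches of 50 bases are found in only 1 of these 3 transcripts.

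Bbc3 (ENSMUSG00000002083.13, mm10 chromosome 7, 16308393 to 16318205, plus strand) was the lowest member. It encodes PUMA, known as a target of p53. Its level was 1.00 TPM in library 1 and 0.91 TPM in library 2 (0.955 ± 0.064), from 22 and 21 counts. It was the only member that did not reach 1 TPM in both libraries, and its posterior mean, 1.39 and 1.31 TPM, lay above that line. All of its counts went to Bbc3-201. Trp53, the gene of p53, stood at 235 TPM in the same libraries.

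The pore formers lay far apart. Bax (ENSMUSG00000003873.11, mm10 chromosome 7, 45461697 to 45466898, minus strand), whose protein waits in the cytosol, had 99.2 and 108 TPM (104 ± 6.38) from 1020 and 1183 counts, with library 2 higher. Bax-201 had 69.5% and 74.0% of the level, Bax-205 had 14.4% and 11.8%, and Bax-203 had 13.4% and 13.3%. The gene Gm45808 overlaps Bax on the same strand and shares 8.51% of its 50-base stretches. It had 0 and 4.47 counts.

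Bak1 (ENSMUSG00000057789.14, mm10 chromosome 17, 27019810 to 27029009, minus strand), whose protein sits in the mitochondrial membrane, had 2.89 and 2.37 TPM (2.63 ± 0.37) from 69.1 and 59.2 counts. Its mean lay above 15.0% of the genes that reached 1 TPM in both libraries. The ratio of Bax to Bak1 was 34.3 in library 1 and 45.7 in library 2, and 22.6 and 30.5 with merged exons as the length. Bak1 lies entirely within Ggnbp1 on the opposite strand, and an annotated Ggnbp1 gene covers 18.2% of the exon bases of Bak1 and had 26.0 and 21.8 counts.

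All counts of Bak1 were assigned to transcripts annotated for nonsense-mediated decay, a fate in which RNA with an early stop is degraded. Bak1-202 and Bak1-203, the transcripts annotated as protein coding, had 0 counts in both libraries. Bak1-201 contains an exon of 20 bases, at mm10 chromosome 17, 27021663 to 27021682, that Bak1-202 and Bak1-204 lack. A microexon of Bak1 is known from neurons, where its inclusion shifts the reading frame, and whether it is this exon was not tested. The exon is shown in capitals between its flanks.
Bak1-201: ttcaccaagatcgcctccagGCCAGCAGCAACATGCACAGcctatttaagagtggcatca
Bak1-202 and Bak1-204: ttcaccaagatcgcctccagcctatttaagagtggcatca
Bak1-204 lacks 5 bases at the start of another exon, shown in capitals in the transcripts that have them.
Bak1-201 and Bak1-202: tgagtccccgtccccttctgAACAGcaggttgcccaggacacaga
Bak1-204: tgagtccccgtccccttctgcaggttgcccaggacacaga

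The 2 libraries did not give the same leading form of Bak1. Bak1-201 had 49.9 counts in library 1, or 72.3% (95% exact Clopper-Pearson interval 60.4 to 82.5%), and 17.1 in library 2, or 28.8% (17.8 to 42.1%). Bak1-204 had the rest. These intervals cover counting error and not the assignment of reads, which rests on 66 stretches of 50 bases found in Bak1-201 alone and 48 found in Bak1-204 alone. The coding transcript Bak1-202 starts 431 bases upstream of Bak1-201 and has 317 stretches to itself. In the posterior mean estimates, Bak1-202 had 10.9% and 13.8% of the gene's level, but those estimates are above 0 even for Bok (0.49 and 0.47 TPM), which had 0 counts.

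Over all members, 44 transcripts are annotated, and 22 of them held 10% or more of their gene in at least 1 library. Another 12 had 0 counts in both. The same transcript led in both libraries for 9 of the 10 members, all but Bak1. Between libraries, the shares of the 22 transcripts differed by a median of 3.47 points, and by up to 43.5 points for Bak1.

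**Figure D2:**
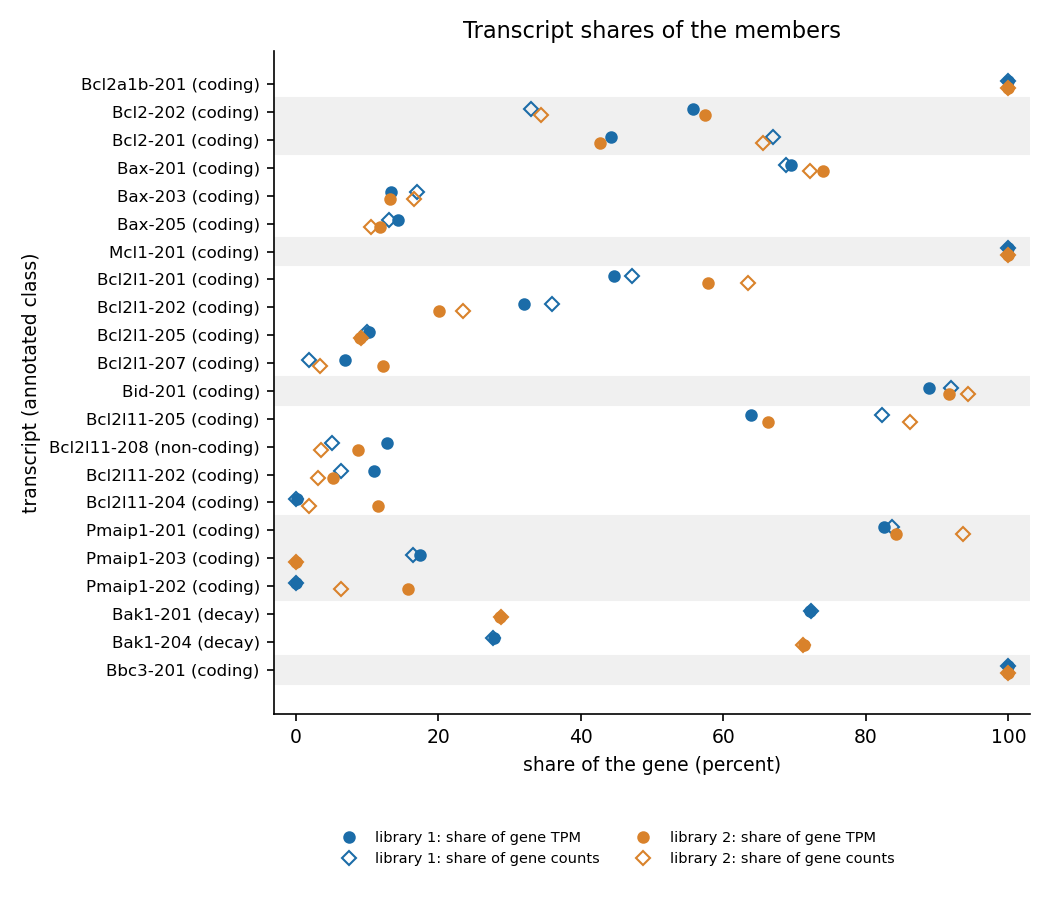
Share of each member's level (filled dots, percent of gene TPM) and of its counts (open diamonds, percent of gene counts) held by the 22 transcripts with 10% or more in either library, with the annotated class in brackets (decay stands for nonsense-mediated decay). Bcl2-202 lies at 55.8% and 57.4% of TPM but at 33.0% and 34.5% of counts, and the Bak1 transcripts change places between library 1 and library 2.

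Ratios between members describe the balance of their RNA, not of their proteins. Bcl2 stood 11.7 times above Bcl2l11 in library 1 and 9.89 times in library 2 (10.8 ± 1.26). This ratio depended on the table, since the smaller gene tables, as counts per kb of merged exons, gave 24.1. Bcl2 stood 1.75 and 1.73 times above Mcl1, although with merged exons as the length Mcl1 was the higher (a ratio of 0.903). Bcl2 stood 3.02 and 3.01 times above Bcl2l1, and 1.24 and 1.15 times above Bax. In the smaller tables per kb of merged exons, Bcl2 stood 1.94 and 1.72 times above Mcl1, and 1.42 and 1.57 times above Bcl2l1. Its ratio to Bax turned there to 0.265 and 0.250. The same tables per kb of coding sequence, a length chosen after seeing the data, did not turn that order. There Bcl2 stood 2.80 and 3.09 times above Bcl2l1, 1.25 and 1.18 times above Bax, and 7.29 and 6.45 times above Mcl1. Mcl1 stood 7.89 and 7.19 times above Pmaip1, whose protein binds MCL1. In the smaller tables that ratio was 4.10 and 4.56 per kb of merged exons, and 1.60 and 1.78 per kb of coding sequence. Bcl2l11 stood 10.5 and 13.8 times above Bbc3 (12.2 ± 2.31), and 6.10 and 7.91 times with merged exons as the length.

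The libraries were set against each other gene by gene, which compares 2 technical libraries and not conditions. An exact two-sided binomial test with Benjamini-Hochberg adjustment called 3 of the 10 members, against 25.1% of the 17458 genes tested, so the members were called about as often as other genes. They were Bcl2a1b (log2 ratio of library 2 over library 1 of 0.21, 95% interval 0.10 to 0.31, adjusted p = 0.00104), Bcl2l11 (0.28, 0.11 to 0.45, adjusted p = 0.00795) and Bax (0.18, 0.06 to 0.31, adjusted p = 0.0149). All 3 were higher in library 2, as were 11.9% of all genes tested. Bcl2, Mcl1, Bid, Pmaip1 and Bcl2l1 had log2 ratios of 0.03, 0.07, 0.11, 0.07 and 0.00 and were not called. Bak1 and Bbc3 had -0.25 and -0.09, with wide intervals (-0.78 to 0.27 for Bak1, -1.03 to 0.83 for Bbc3). None of the 10 differed 1.5-fold and past the threshold, as 8.8% of all genes did.

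The binomial test counts only sampling error. When variation between the libraries beyond it was allowed for, with the edgeR exact test and a common dispersion (a coefficient of variation of 13.0%), 0 of the 10 members were called. That dispersion was estimated from these same libraries taken as a single group. The spread under test thus set its own scale, and the result is no independent check. By the same edgeR test 2.1% of all genes were called. None of the members (0 of 10) had an unadjusted edgeR p under 0.05, as 9.14% of all genes did. The log2 ratio was above 0 for 8 of the 10 members, against 50.1% of all genes tested, and the median of the members was 0.07 against 0.00. Above a summed count of 500, where 8 members lie, 3 of these 8 were called by the binomial test against 34.2% of all genes, and 8 of 8 had a ratio above 0 against 49.5%. In the smaller gene tables Bcl2 (-0.01), Bcl2l1 (-0.15) and Bak1 (-0.30) lay below 0, and 6 of the 9 members tested lay above it.

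**Figure D3:**
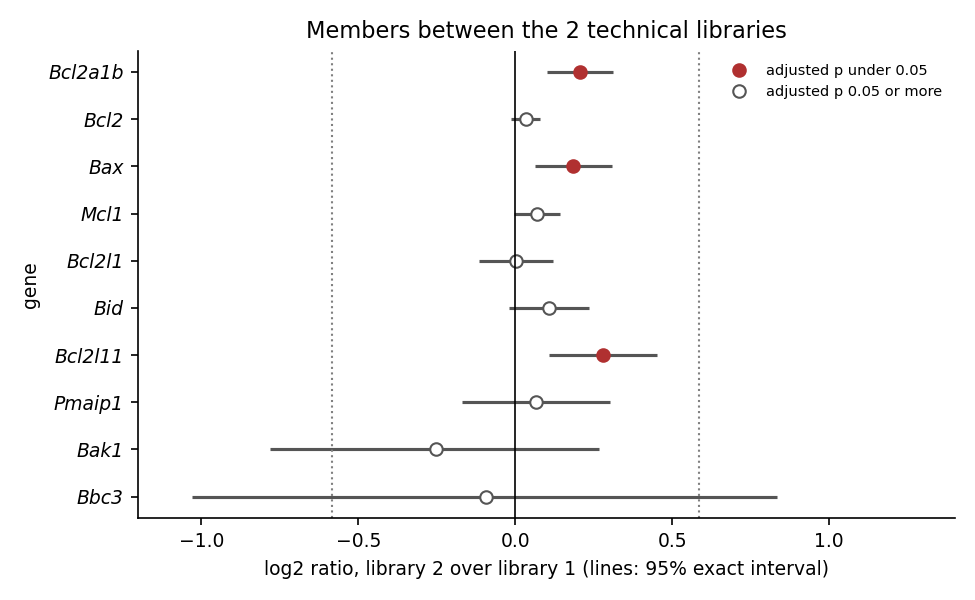
Log2 ratio of library 2 over library 1 for each member, with its 95% exact interval. Filled dots passed the exact binomial test after Benjamini-Hochberg adjustment, and the dotted lines mark a 1.5-fold difference, which none of the 10 dots reached.

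Each library also came with a smaller gene table on the older GENCODE M4 annotation, with 3746426 and 3680387 counts. The members fared very differently in it. Its count for Bax was 49.8% of that in the larger table, and for Bak1 28.1%. For Bid, Bcl2l1, Bcl2 and Pmaip1 it was 24.3%, 24.0%, 11.1% and 10.2%. It was 5.51% for Mcl1 (159 and 177 counts), 5.29% for Bcl2l11 (28 and 32) and 5.13% for Bcl2a1b (75 and 78). Bbc3 had 0 counts in both smaller tables, which allows up to 3 in each. The median over the 7720 genes with 400 or more summed counts was 39.1%.

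Across those genes, this percentage was higher the larger the part of a gene's transcripts that is coding. Spearman's rho was 0.566 across genes, which are not independent replicates and share both libraries. Genes with a coding share of up to 10% had a median of 17.2%, and those above 80% had 71.1%. Each member was then set beside the genes whose coding share lay within 5 points of its own. Of such genes, between 32.9% (for Pmaip1) and 68.7% (for Bak1) had the same or a lower value for 6 of the members, among them Bcl2, Bax and Bid. For Bcl2l11 it was 16.7%, for Mcl1 7.18% and for Bcl2a1b 4.85%. After scaling each table to its total, Mcl1 (4.18-fold), Bcl2l11 (4.18-fold) and Bcl2a1b (4.43-fold) were at least 4-fold lower in the smaller tables. Such differences in either direction were found for 6.94% of the 7720 genes. How the smaller tables were counted is not given in the sources used here.

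**Figure D4:**
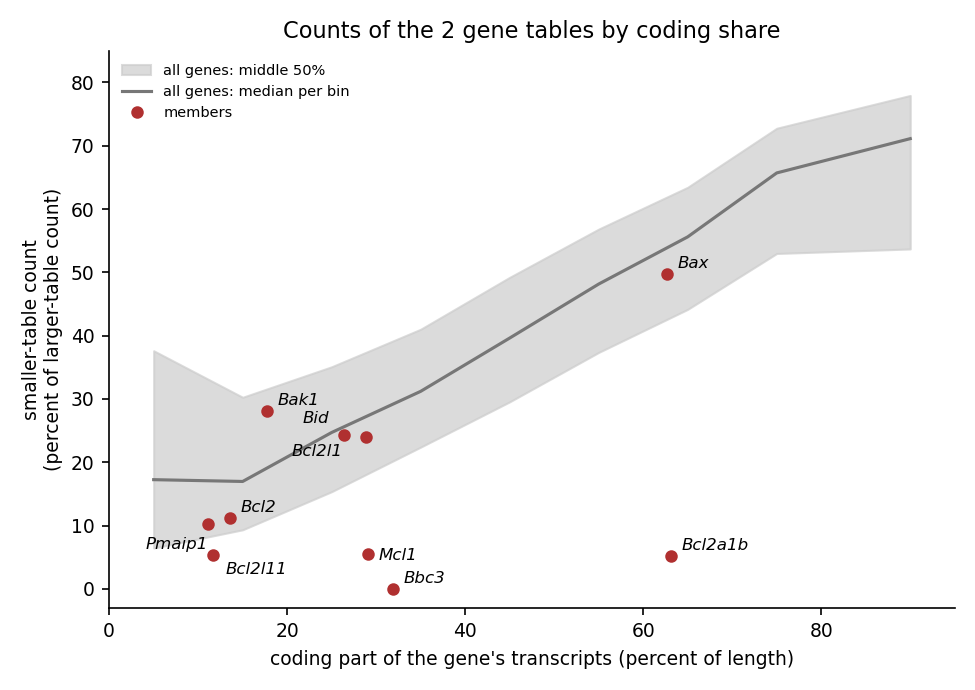
Smaller-table count as a percent of the larger-table count, both libraries summed, against the coding part of each gene's transcripts. The line is the median of all genes with 400 or more summed counts in bins of coding share, the grey band holds their middle 50%, and the dots are the members. Mcl1, Bcl2l11 and Bcl2a1b lie below the band at 5.51%, 5.29% and 5.13%, and Bbc3 lies at 0. Bbc3 and Bak1 have too few counts to be among the genes of the line and band.

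The other members of the family had a lower median than the 10 members. Of 16 further BCL2 family genes, 9 reached 1 TPM in both libraries, against 46.5% of all annotated protein-coding genes. The median of all 16 was 1.85 TPM, beside 39.4 TPM for the 10 members. Bnip3l, a mitochondrial protein known for mitophagy, stood at 375 ± 13.9 TPM, although it shares 20.8% of its 50-base stretches with other genes, among them its pseudogene Bnip3l-ps. Bad, a BH3-only gene whose protein is held inactive by phosphorylation, had 26.3 ± 1.48 TPM, Bcl2l12 had 19.1 ± 2.24 and Bnip3 had 16.5 ± 1.15. Bcl2l13 and Bcl2l15 had 7.81 ± 1.24 and 5.74 ± 0.95 TPM.

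At the low end, the survival gene Bcl2l2, which encodes BCL-W, had 1.63 and 2.02 TPM, and Bcl2l14 had 1.64 and 2.09. The BH3-only genes Bik and Bmf had 1.79 and 0.67 TPM, and 0.56 and 0.94 TPM. Bcl2l10 had 0 and 3 counts, and the BH3-only gene Hrk had 3.08 and 0, at or near the floor. Bok, a relative of Bax and Bak1, had 0 counts in both libraries. Of 13 further family genes tested between the libraries, 3 passed the exact binomial test after Benjamini-Hochberg adjustment, against 25.1% of all genes tested. Bnip3 (log2 ratio 0.45, adjusted p = 0.00113) and Bcl2l15 (0.79, adjusted p = 0.00806) were higher in library 2, and Bcl2a1a was higher in library 1 (15.4 counts against 0, adjusted p = 0.000341). By the edgeR exact test with a common dispersion, Bnip3 (adjusted p = 0.831) and Bcl2l15 (0.449) were not called, and Bcl2a1a was (0.0120).

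The genes around the family were almost all expressed. Among 14 genes of the apoptosome, the caspases and mitochondrial death factors, 13 reached 1 TPM in both libraries, with a median of 31.3 TPM. They ranged from the nuclease gene Endog at 1.37 TPM to Vdac2, a channel of the outer mitochondrial membrane, at 173 TPM. All 6 inhibitors of apoptosis were expressed (median 57.4 TPM), from Naip2 at 6.34 TPM to Birc6 at 205 TPM. Naip2 has close copies in the mouse genome, and the sequence it shares with them was not measured. All 9 genes of the death receptor pathway were expressed too (median 20.4 TPM), from the receptor gene Tnfrsf10b at 2.28 TPM to Casp8, the caspase that cuts BID, at 141 TPM.

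Among 14 transcription factors known to act on members, 13 were expressed (median 36.0 TPM), from Trp73 at 0.05 TPM to Trp53. Of 12 genes for protein turnover and kinases acting on members, 12 were expressed (median 24.3 TPM), from Mapk8 at 9.89 TPM to Pim1 at 366 TPM. PIM1 is a kinase known to phosphorylate BAD. Between the libraries, the exact binomial test with Benjamini-Hochberg adjustment called 3 of 14, 3 of 6, 3 of 9, 5 of 13 and 4 of 12 genes tested of these 5 lists in the order given, against 25.1% of all genes tested. None of these calls reached 1.5-fold. The edgeR exact test with a common dispersion called 0 genes in each of the 5 lists, with 0 at an unadjusted p under 0.05.

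**Figure D5:**
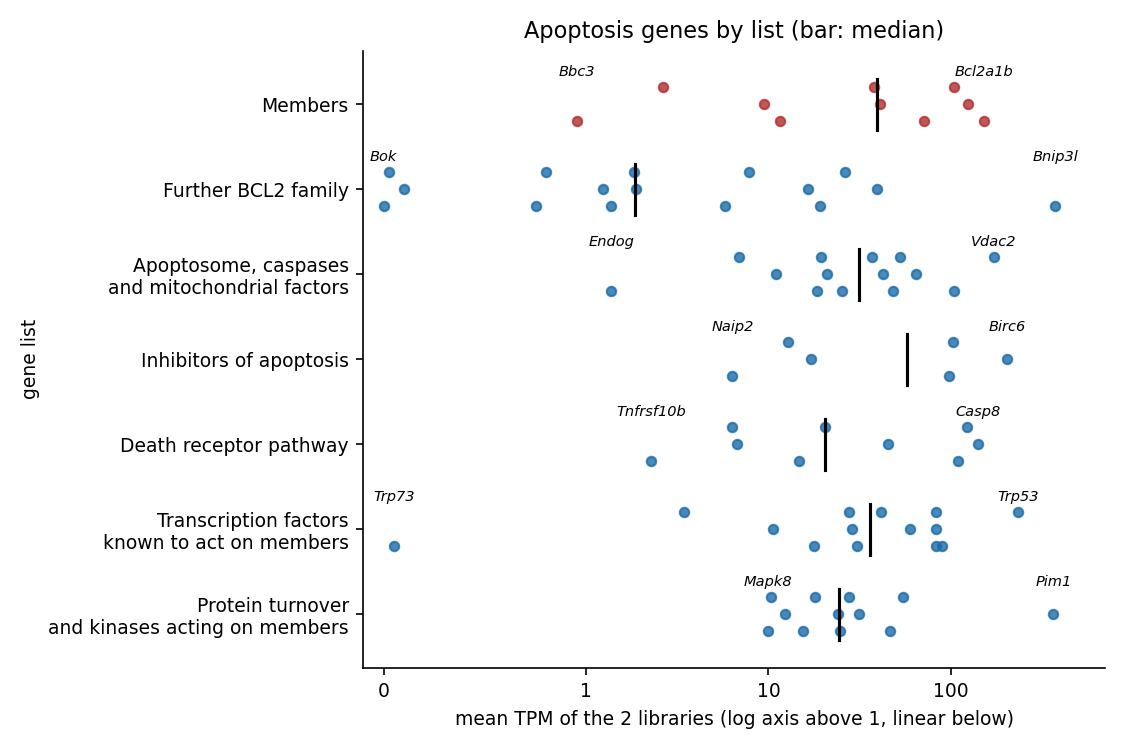
Mean TPM of the 2 libraries for every gene of the members, the further BCL2 family and the 5 other apoptosis lists, on an axis that is logarithmic above 1 and linear below. Vertical bars are list medians (39.4 TPM for the members, 1.85 TPM for the further family), heights within a row only separate the dots, and the lowest and highest gene of each list is named.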

How the data were processed

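PolyA plus RNA-seq gave 2 technical libraries of 1 biological sample, which form 1 group. The larger gene tables and the transcript tables hold, per the file headers, estimated counts (expected counts) without scaling, TPM as maximum likelihood and posterior mean estimates, and the percent of a gene's TPM given to each transcript. Credibility bounds of TPM, lengths and the posterior SD of counts, recorded here as score values, stand as the authors' model gave them. The deposited tables carry column names of the kind RSEM writes. For the aligner and the versions of software, the sources used here give nothing. The smaller gene tables were deposited as whole-number counts on an earlier annotation. FPKM columns deposited by the authors were not used.

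Symbols, positions and transcripts came from GENCODE M21 (mm10), with 22195 of 22457 identifiers of the smaller tables matched. Another 26345 features of the larger tables that no annotated gene identifier matched, spike-ins among them, were left out. The effective length in the tables is 49 bases below the transcript length, and stretches of 50 bases were used to find sequence shared between genes or transcripts. Expressed means that each library gave 1 TPM or more.

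Estimated counts were rounded and the libraries compared, where their sum reached 10, by an exact two-sided binomial test conditional on the sum, with library sizes scaled by TMM (edgeR 4.0.16 in R 4.3.3). Benjamini-Hochberg adjustment ran over all genes tested, with a threshold of 0.05. With 1 library on each side no dispersion per gene could be estimated. The binomial p values set the difference between these libraries against sampling error only. Those of the edgeR test set it against a common dispersion estimated from the same libraries. Log2 ratios used a prior count of 0.5, and the tables were compared with a prior of 0.5 CPM. Intervals are at 95%, from SciPy 1.17.1 in Python 3.11.15, and cover counting error only. PCR reads without molecular identifiers are not independent molecules. On simulated counts that held sampling error only, the binomial test recovered 62.0% of 200 genes changed 1.5-fold, with 3 false calls. The real libraries vary beyond sampling error, so the simulation gives no rate of false calls for them.

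Alternatives were DESeq2 1.42.0 size factors, total counts, other filters, a 1.5-fold minimum, the edgeR exact test with a common dispersion, the smaller tables, posterior means, other length scales and each library alone. The members, the 6 lists with 71 genes and the markers were chosen with earlier results of these data known. Named are all members and further family genes, and of each other list the highest and lowest gene, genes with 0 counts in both libraries and genes called with 1.5-fold or more. The overlapping genes Gm29094, Gm45808, Bnip3l-ps, D630008O14Rik and Ggnbp1 were named after their values were seen. No protein sequences were used here.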

Additional observations from a re-analysis of the deposited data

How the results depend on the processing

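The 3 members called different between the libraries were Bcl2a1b, Bcl2l11 and Bax under DESeq2 size factors, total counts, no filter and a summed count of 50 or more. The count of members fell to 0 with a 1.5-fold minimum, to 0 by the edgeR exact test with a common dispersion (0 at an unadjusted p under 0.05) and to 0 in the smaller tables by the exact binomial test (0 of 9 at an unadjusted p under 0.05). The count over all genes was 1537, 367 and 1163 under these settings, against 4387. The 1163 were of 11114 genes tested, while 1537 (8.8%), 367 (2.1%) and 4387 (25.1%) were of 17458. No share of all genes at an unadjusted p under 0.05 is given for the smaller tables. The 0 of 9 members there thus has no background to be set against. The ratio of Bcl2 to Bcl2l11 was 12.3 with protein-coding transcripts only, 24.1 in the smaller tables per kb of merged exons and, chosen after seeing the data, 22.8 per kb of coding sequence. At 2-fold instead of 4-fold, 7 members differed between the gene tables, against 27.8% of the 22195 genes compared and 50.4% of the 7720 with 400 or more summed counts. The cause of these changes was not tested, apart from the stricter thresholds. Leaving out each library in turn gave 9 to 10 members at 1 TPM or more, a ratio of 9.89 to 11.7, and 3 to 3 members differing 4-fold between the tables. Summing the 4 Bcl2a1 genes, also chosen after seeing the data, gave 194 TPM. Of the 10 levels, 10 moved by more than the SD of the libraries when TPM was rescaled over protein-coding genes. With posterior means 7 moved, and 8 with merged exons as the length, where values were also rescaled to a common total. There Bcl2a1b went to 277 from 152 and Mcl1 to 136 from 71.0. Their lengths, 817 and 3418 bases, were the same with merged exons as in the deposited tables. No called direction reversed. No paired analysis was possible because the libraries form a single group. Without both libraries, no library test or count of shared leading transcripts can be made. Depth limits Bbc3 and Bak1, and shared sequence limits Bcl2a1b, Bcl2a1a and the transcript shares.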
